A study of Mus musculus with 14 samples.

Results

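Interferon-stimulated genes are the antiviral, antigen-processing and signalling genes that cells switch on when an interferon binds its receptor. The 38 genes described here were chosen by name, and all 38 were found among the 23286 genes measured in bulk RNA-seq of mouse whole kidney. The 12 libraries form 4 groups of 3, sham and IR kidneys of each of 2 genotypes, Control and VE-PTPiKO. All mice were 9 weeks old, and all kidneys were taken 5 h after ischemia-reperfusion (IR) injury, in which the blood supply is stopped and then restored, or after sham surgery. These genotype names are the submitters' own. VE-PTPiKO targets VE-PTP, an endothelial phosphatase encoded by Ptprb that acts on the receptor Tie2, and no promoter or Cre line is named in the sources used here. The comparisons ask what IR does to the kidney transcriptome with and without VE-PTP targeting. The labels do not say whether replicates came from separate animals, so each p-value covers the spread among libraries alone, which may be technical.

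Type I interferons bind the receptor pair encoded by Ifnar1 and Ifnar2, type II interferon binds the pair encoded by Ifngr1 and Ifngr2, and type III interferons bind that encoded by Ifnlr1 and Il10rb. The receptors act through JAK kinases on STAT proteins. STAT2 and IRF9 are parts of the complex that binds the interferon-stimulated response element (ISRE), and the gamma-activated site (GAS) is the element typical of interferon-gamma targets. Damaged kidney tubules release nucleic acids that sensors such as those encoded by Ifih1, Ddx58 and Zbp1 can detect.

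Depth ran from 15427887 to 21296392 reads assigned to genes per library. Values below are normalized counts, that is reads divided by a library size factor set over all 12 libraries. Ptprb, the targeted gene, stood at 3061, 4363 and 3269 in Control sham against 2068, 2852 and 3049 in VE-PTPiKO sham, and at 2040, 2156 and 2721 in Control IR against 1314, 1677 and 2114 in VE-PTPiKO IR. The genotypes did not overlap in sham and overlapped in IR, and neither genotype difference passed the test (limma adjusted p = 1 in both). The deleted stretch is not given, so counts over the whole gene are a limited check of the labels. Kidney tubule markers were abundant in every library (summed over 6 genes, 253000 to 390000), and podocyte and endothelial markers were present in all.

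Among the 38 genes, the IFIT family held every change that passed the test, so the 200 bases before the transcription start site of each are shown first (RefSeq, build GRCm38.p6, which is mm10). All 5 lie in a cluster on chromosome 19. The windows are chr19:34583329-34583528 (+ strand) for Ifit3, chr19:34607757-34607956 (+) for Ifit3b, chr19:34599428-34599627 (- strand) for Ifit1bl1, chr19:34640689-34640888 (+) for Ifit1 and chr19:34550494-34550693 (+) for Ifit2. RefSeq lists a further start site for Ifit1bl1 and for Ifit2, and those nearest the deposited gene limits are printed. Each is written 5′ to 3′ on the strand of its gene, and capitals mark matches to the ISRE core, read as GAAA, any 2 bases and GAAA, on either strand.
Ifit3: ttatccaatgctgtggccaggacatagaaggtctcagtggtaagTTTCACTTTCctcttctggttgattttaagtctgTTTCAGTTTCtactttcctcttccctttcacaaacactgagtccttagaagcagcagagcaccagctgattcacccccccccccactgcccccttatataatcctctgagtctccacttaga
Ifit3b: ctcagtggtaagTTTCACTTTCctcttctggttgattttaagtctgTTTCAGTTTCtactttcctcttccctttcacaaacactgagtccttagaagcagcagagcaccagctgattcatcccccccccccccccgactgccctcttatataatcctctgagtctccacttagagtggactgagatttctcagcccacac
Ifit1bl1: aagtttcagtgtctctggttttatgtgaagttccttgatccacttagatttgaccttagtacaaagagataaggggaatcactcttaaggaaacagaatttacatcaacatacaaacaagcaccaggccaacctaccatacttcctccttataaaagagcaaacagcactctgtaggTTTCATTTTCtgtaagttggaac
Ifit1: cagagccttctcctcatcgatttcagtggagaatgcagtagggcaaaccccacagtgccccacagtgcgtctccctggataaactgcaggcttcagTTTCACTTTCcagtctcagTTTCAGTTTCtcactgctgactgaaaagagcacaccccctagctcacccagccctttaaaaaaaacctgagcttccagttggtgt
Ifit2: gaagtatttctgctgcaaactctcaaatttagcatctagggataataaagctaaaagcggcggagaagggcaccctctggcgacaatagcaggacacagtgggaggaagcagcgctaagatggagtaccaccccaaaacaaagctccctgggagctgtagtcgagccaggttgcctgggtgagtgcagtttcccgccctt
Ifit3 and Ifit3b held the same pair of matches, TTTCACTTTC and TTTCAGTTTC, beginning 156 and 122 bases before the start site in Ifit3 and 188 and 154 bases before it in Ifit3b. Ifit1 held the same pair of 10-base matches at 104 and 85 bases before its start. Ifit1bl1 held 1 match, TTTCATTTTC, 23 bases before its start, and neither Ifit2 window held one. A RefSeq window of 250 bases before to 50 after the start was matched for 31 of the 38 genes. It was not matched for Usp18, Dhx58, Rtp4, Zbp1, Parp9, Parp14 and Ifi27. The ISRE core was found in 16 of the 31 (51.613%), against 3.993% of the 27025 genes with a window. The GAS core TTCNNNGAA, which reads the same on both strands, was found in 8 of 31 (25.806%) against 9.554%. In Bst2 and Ifitm3 a GAS match overlapped an ISRE match. A match is a description of letters, not a measured binding site.

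After IR in Control kidneys, Ifit3 and Ifit3b rose and Ifit1bl1 fell, and the other 35 genes did not pass the test. Those 3 of 38 genes (7.89%) compare with 11.5% of the 16257 genes tested (limma, Benjamini-Hochberg adjusted p under 0.05 over all genes). By direction, 2 of 38 rose, against 7.48% of all genes, and 1 fell, against 4.02%. The median log2 fold change of the 38 genes was 0.09, with 25 above 0 and 13 below, against -0.01 for all genes. Without Control IR replicate 3 the median was 0.01, with 20 above 0, and without Control sham replicate 2 it was 0.02, with 21 above 0. In 26 of the 38 the 95% interval of the change lay within 2-fold in either direction, against 65.4% of all genes. IR and sham libraries did not overlap for 9 of 38 genes, against 29.4% of all genes. Of these, 7 were higher in IR (16.0% of all genes) and 2 lower (13.4%). Ischemia-reperfusion in VE-PTPiKO kidneys gave 0 calls among the 38, against 2.71% of 16401 genes. An unadjusted p under 0.05 was reached there by 6 of 38 genes, against 15.2% of all genes. On recovered reads edgeR called 0 of the 38 (2.78% of all genes) and DESeq2 called 1, Gbp2 (7.15%). The VE-PTPiKO groups did not overlap for 6 of the 38, against 20.6% of all genes. The median was -0.03, with 17 genes above 0, and without VE-PTPiKO sham replicate 2 it was 0.11, with 27 above 0. It also turned positive without VE-PTPiKO IR replicate 1 (0.03) or IR replicate 2 (0.05).

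**Figure D1:**
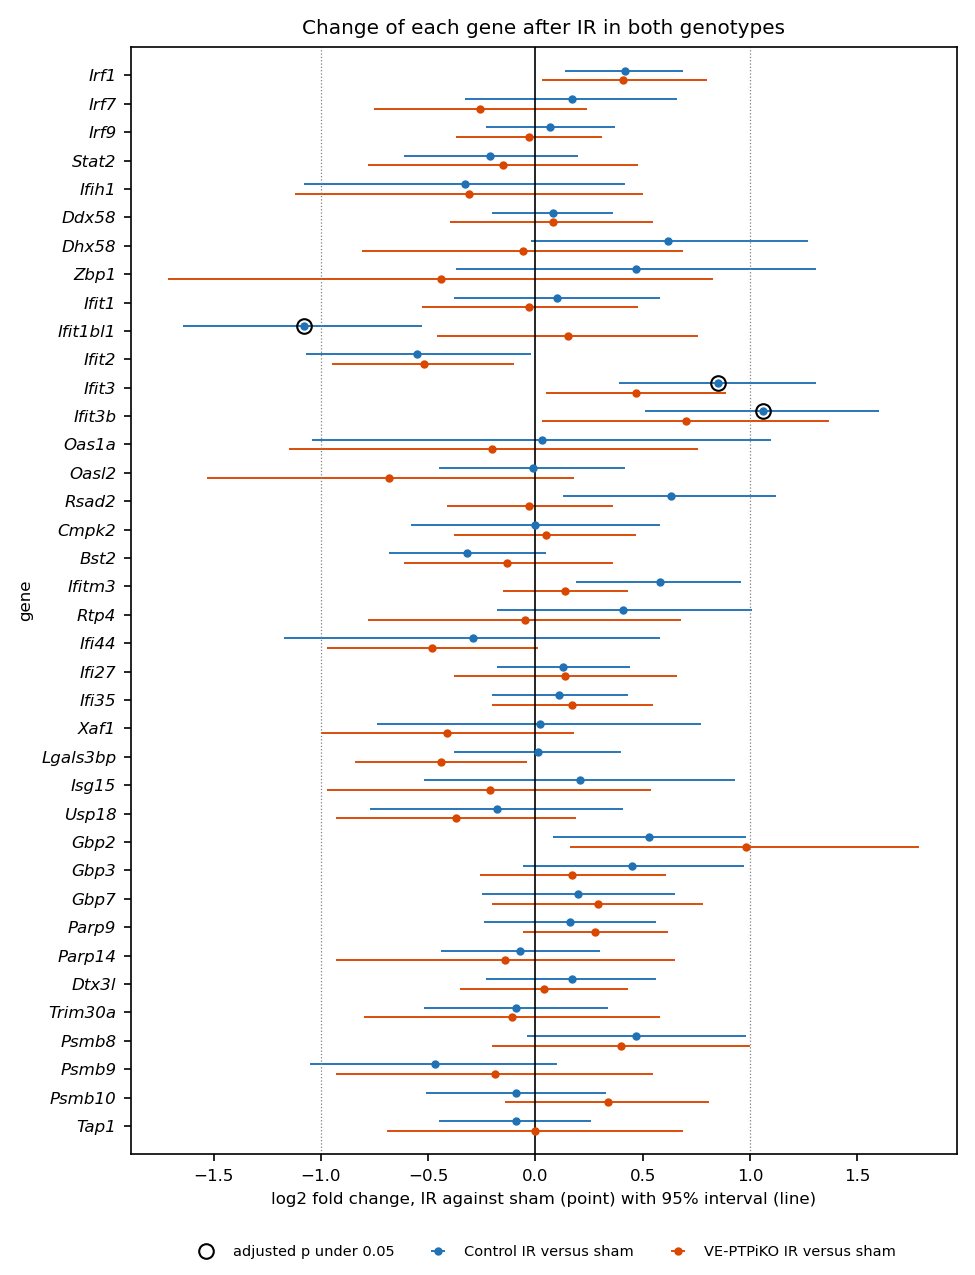
Log2 fold change of each of the 38 genes after IR, against sham, in Control (blue) and VE-PTPiKO (orange) kidneys, with lines for the 95% interval and open circles for adjusted p under 0.05. The circled genes are Ifit3 and Ifit3b to the right of 0 and Ifit1bl1 to the left, all in Control, and no VE-PTPiKO value is circled.

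The library columns show a second feature of these genes. Control IR replicate 3 had the highest value of its group for 35 of the 38 genes, the exceptions being Stat2, Ifi35 and Ifi27, while it was highest for 34.7% of all genes. VE-PTPiKO sham replicate 2 was highest for 31 of 38, against 33.0% of all genes, and VE-PTPiKO IR replicate 3 for 21, against 44.1%. Control sham replicate 1 was highest of its group for 25 of 38, against 32.0% of all genes. The median gene stood 0.35, 0.27 and 0.24 (log2) above its 12-library median in Control IR replicate 3, VE-PTPiKO sham replicate 2 and VE-PTPiKO IR replicate 3. In the other 9 libraries this median ran from -0.21 in Control sham replicate 2 to 0.06 in Control sham replicate 1. Malat1, a nuclear-retained RNA, took 1.152% of reads in VE-PTPiKO sham replicate 2 and 1.962% in VE-PTPiKO IR replicate 3, but 0.506% in Control IR replicate 3. Malat1 also took 1.02% in Control sham replicate 2, the library where the median of the 38 genes was lowest (-0.21). Among 63 other interferon-stimulated genes, Control IR replicate 3 was highest of its group for 36, VE-PTPiKO sham replicate 2 for 45 and VE-PTPiKO IR replicate 3 for 40.

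**Figure D2:**
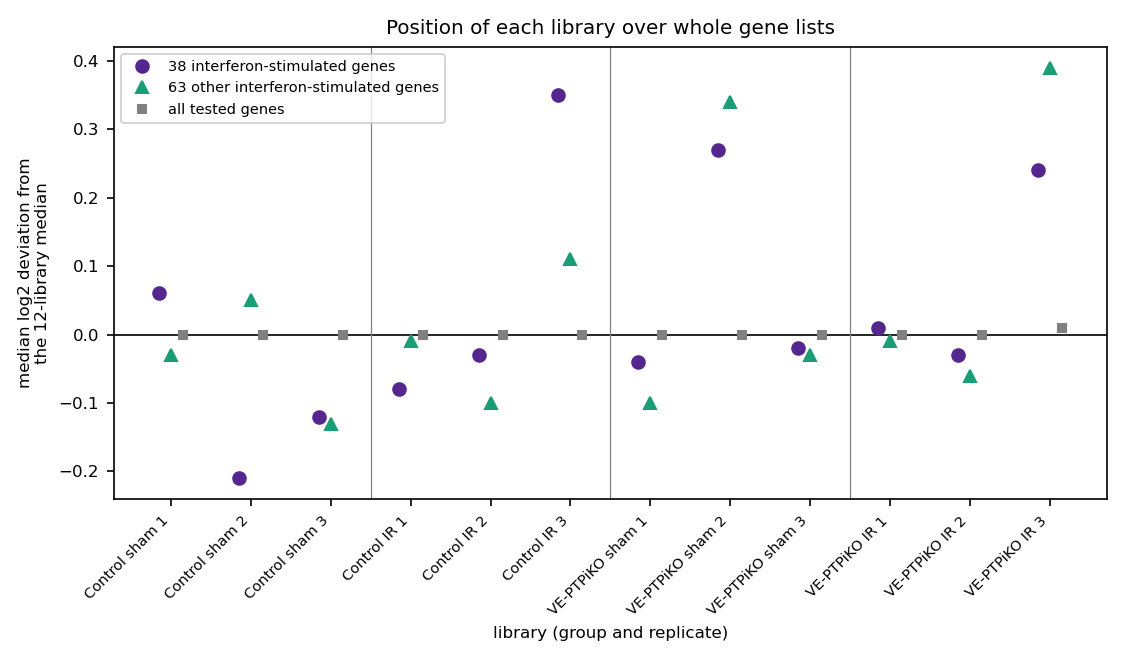
Median log2 deviation from the 12-library median for each library (x axis, group and replicate), over the 38 genes (circles), 63 other interferon-stimulated genes (triangles) and all tested genes (squares). Control IR replicate 3 at 0.35, VE-PTPiKO sham replicate 2 at 0.27 and VE-PTPiKO IR replicate 3 at 0.24 are the highest circles, and the squares stay near 0.

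Among the transcription factors, none of 4 passed the test in either genotype, against 11.5% of all genes in Control and 2.71% in VE-PTPiKO. For lists as short as the roles here and below, 0 calls does not show that a role was unresponsive. Irf1, an early-response factor that drives many interferon-gamma targets, stood at 271, 281 and 262 in Control sham and 358, 354 and 373 in Control IR. It stood at 312, 353 and 253 in VE-PTPiKO sham against 372, 412 and 428 in VE-PTPiKO IR. Every IR library lay above every sham library of its genotype. The differences were 0.42 ± 0.12 (log2, SE; adjusted p = 0.0551) and 0.41 ± 0.17 (adjusted p = 0.282), and the Control difference passed without Control sham replicate 2 (adjusted p = 0.0427). Irf1 is described although it did not pass because its size was nearly the same in both genotypes, a choice made after its values were seen. Its promoter window held the GAS match TTCCCCGAA, 90 bases before the start. Irf7, the factor that amplifies type I interferon production, Irf9 and Stat2 overlapped between IR and sham in both genotypes, with log2 differences from -0.26 (Irf7 in VE-PTPiKO) to 0.17 (Irf7 in Control).

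The nucleic acid sensors gave 0 calls of 4 in either genotype, against 11.5% and 2.71% of all genes. Ifih1 and Ddx58 encode the cytosolic RNA sensors MDA5 and RIG-I, and Dhx58 encodes their regulator LGP2. Their log2 differences in Control were -0.33, 0.08 and 0.62, and in VE-PTPiKO -0.31, 0.08 and -0.06. Dhx58 stood at 33.7, 28.8 and 22.4 in Control sham and 42.7, 33.8 and 56.7 in Control IR. Those groups did not overlap, by a narrow margin (limma adjusted p = 0.222). Its VE-PTPiKO values were 33.1, 48.9 and 30.0 in sham and 28.05, 29.4 and 51.2 in IR, with overlap. Zbp1, a sensor of left-handed nucleic acids that can start cell death, had the widest spread within a group. It stood at 10.4, 5.44 and 31.6 in VE-PTPiKO IR, a 5.06-fold range, with 14.1, 21.6 and 16.6 in VE-PTPiKO sham. Control values were 13.5, 15.7 and 13.8 in sham and 20.3, 12.4 and 32.1 in IR. The IR groups of both genotypes were high in replicate 3 and overlapped sham, and the log2 differences were 0.47 ± 0.38 (adjusted p = 0.519) in Control and -0.44 ± 0.56 (adjusted p = 0.79) in VE-PTPiKO. Zbp1 was also the least abundant of the 38, at 4.9 normalized counts per kilobase of exon over the 12 libraries.

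The IFIT proteins bind viral RNA and block its translation. Ifit3 counts were 214, 129 and 176 in Control sham and 272, 272 and 381 in Control IR. They were 180, 226 and 205 in VE-PTPiKO sham against 321, 232 and 296 in VE-PTPiKO IR. IR and sham did not overlap in either genotype. In Control the rise was 0.85 ± 0.21 (log2, SE), or 1.8-fold (limma adjusted p = 0.0242), from a mean of 173 ± 42.2 to 308 ± 62.8 (SD, n = 3). The VE-PTPiKO difference was 0.47 ± 0.19, or 1.38-fold, and did not pass (adjusted p = 0.266).

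Ifit3b, a close copy of Ifit3, stood at 79.8, 45.4 and 45.8 in Control sham and 115, 108 and 122 in Control IR. Its VE-PTPiKO values were 53.8, 84.6 and 51.8 in sham and 141, 90.3 and 80.7 in IR. The Control groups did not overlap, and the VE-PTPiKO groups overlapped through sham replicate 2 and IR replicate 3. The Control rise was 1.06 ± 0.25 (log2, SE), or 2.08-fold (limma adjusted p = 0.0188). In VE-PTPiKO the difference was 0.70 ± 0.29, or 1.63-fold (adjusted p = 0.298). Ifit3 and Ifit3b transcripts were 97.8% identical over 1700 bases. Reads that match both may have been dropped or assigned to either gene, so their rises are not taken as independent. The Ifit3 call ended without Control sham replicate 3, IR replicate 2 or IR replicate 3, where adjusted p was 0.0668, 0.0629 and 0.1, and that of Ifit3b without sham replicate 3 or IR replicate 1, 2 or 3 (0.0702, 0.057, 0.0708 and 0.0684).

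Ifit1bl1, an IFIT1-like gene of the same cluster, moved the other way. It stood at 67.5, 77.8 and 63.9 in Control sham and 29.9, 26.7 and 41.6 in Control IR. The VE-PTPiKO values were 52.1, 59.2 and 78.7 in sham and 69.6, 88.1 and 54.5 in IR. All Control IR libraries lay below the 9 others. The Control fall was 1.08 ± 0.25 on the log2 scale, or 2.12-fold (limma adjusted p = 0.0183), while VE-PTPiKO differed by 0.15 ± 0.27 (adjusted p = 0.857). The call ended without Control IR replicate 1 or IR replicate 2 (adjusted p = 0.0566 and 0.0975). The difference between the genotypes' responses was 1.24 ± 0.35 (log2) and did not pass over all genes (limma adjusted p = 0.999, unadjusted p = 0.00392).

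Ifit1 and Ifit2 complete the family. Ifit1, the cap-binding member, overlapped between IR and sham in both genotypes, with log2 differences of 0.10 and -0.03. Ifit2 stood at 354, 363 and 380 in Control sham and 191, 204 and 395 in Control IR, so IR replicate 3 lay above all sham libraries while the other IR libraries lay far below. Its Control difference of -0.55 ± 0.24 did not pass (adjusted p = 0.185), and without IR replicate 3 it was -0.88 and passed (adjusted p = 0.00743). In VE-PTPiKO Ifit2 stood at 421, 481 and 316 in sham and 273, 256 and 306 in IR, groups that did not overlap. That difference was -0.52 ± 0.19 (adjusted p = 0.223).

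**Figure D3:**
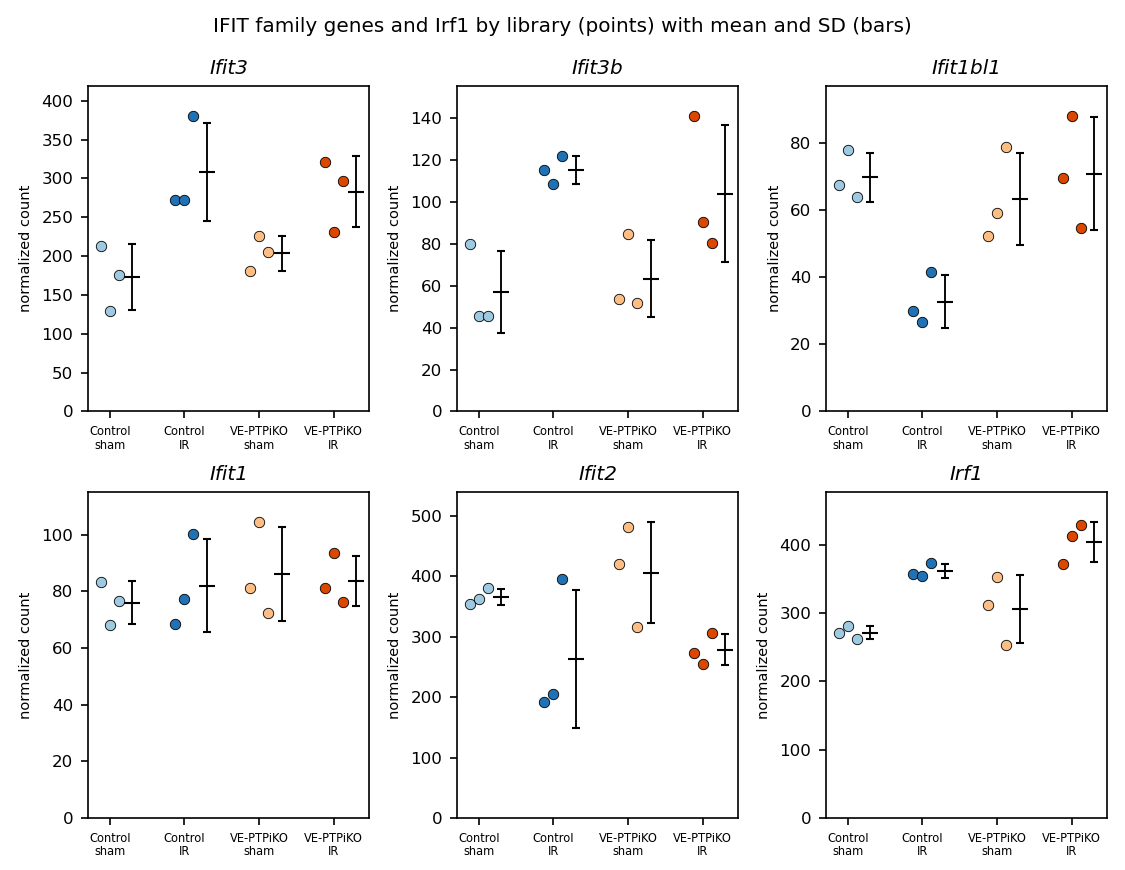
Normalized counts (y axis, from 0) of the 5 IFIT family genes and Irf1 in each library of the 4 groups, with points for libraries and bars for mean and SD (n = 3). Ifit3 and Ifit3b are higher in Control IR than in Control sham, the Control IR points of Ifit1bl1 lie below its 9 others, and Ifit2 in Control IR has 2 libraries near 200 and 1 at 395.

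The OAS genes encode enzymes, or inactive relatives of them, in the pathway that activates RNase L. Neither of the 2 passed the test in either genotype, against 11.5% and 2.71% of all genes. Oas1a, whose transcript is 97.6% identical to that of Oas1g over 1861 bases and so uncertain, ranged 3.06-fold within Control IR (20.3, 8.89 and 29.3). Control sham values were 25.9, 9.61 and 20.2, VE-PTPiKO sham values 24.8, 37.6 and 15.5, and VE-PTPiKO IR values 13.5, 22.9 and 30.5. All 4 groups overlapped. Oasl2 stood at 80.9, 79.5 and 75.6 in Control sham and 78.0, 69.3 and 87.0 in Control IR, a difference of -0.01 ± 0.20. In VE-PTPiKO it stood at 87.7, 160 and 116 in sham and 59.2, 50.05 and 132 in IR. Here IR replicate 3 lay inside the sham range and the other IR libraries below it. The difference was -0.68 ± 0.38 (adjusted p = 0.45), and without IR replicate 3 it was -1.09 and passed (adjusted p = 0.0364).

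Of 10 other antiviral effectors none passed in either genotype, against 11.5% and 2.71% of all genes. Rsad2, which encodes viperin, stood at 356, 239 and 280 in Control sham and 399, 345 and 632 in Control IR. VE-PTPiKO values were 329, 327 and 333 in sham and 272, 318 and 391 in IR. The Control groups overlapped by sham replicate 1 and IR replicate 2, with a difference of 0.63 ± 0.22 (adjusted p = 0.105), and VE-PTPiKO differed by -0.03 ± 0.17. DESeq2 on recovered reads called Rsad2 in Control (log2 0.66, adjusted p = 0.0311).

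Ifitm3, which blocks viral entry at endosomes, was the most abundant of the 38 per length, at 856 normalized counts per kilobase of exon over the 12 libraries, followed by Ifi27 at 321 and Lgals3bp at 289. It stood at 606, 366 and 437 in Control sham and 617, 705 and 733 in Control IR, with no overlap. In VE-PTPiKO it stood at 555, 573 and 538 in sham and 636, 595 and 600 in IR, again with no overlap. The differences were 0.58 ± 0.17 (adjusted p = 0.0566) and 0.14 ± 0.13 (adjusted p = 0.685). The Control difference passed without sham replicate 1 (0.77, adjusted p = 0.00761). Ifitm3 is given as the gene nearest the threshold after Irf1, a choice made after its values were seen.

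Ifi44, a microtubule-associated antiviral protein, ranged 3.62-fold within Control IR at 70.5, 101 and 258, with 202, 115 and 148 in Control sham. In VE-PTPiKO it stood at 192, 201.2 and 139 in sham and 112, 149 and 118 in IR, where the groups overlapped through IR replicate 2. The differences were -0.29 ± 0.40 and -0.48 ± 0.22 (adjusted p = 0.726 and 0.342). Cmpk2, the neighbour of Rsad2 and a mitochondrial nucleotide kinase, differed by 0.00 and 0.05. Bst2, which encodes tetherin, had no overlap in Control, where IR was lower (-0.32, adjusted p = 0.276). Lgals3bp, a secreted galectin-binding protein, had no overlap in VE-PTPiKO, where IR was lower (-0.44 ± 0.18, adjusted p = 0.27). Rtp4, Ifi27, Ifi35 and Xaf1 overlapped in both genotypes, with differences from -0.41 (Xaf1 in VE-PTPiKO) to 0.41 (Rtp4 in Control). Antisense or overlapping genes cover 13.9% of Rtp4 and 16.8% of Ifi35 exon bases.

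**Figure D4:**
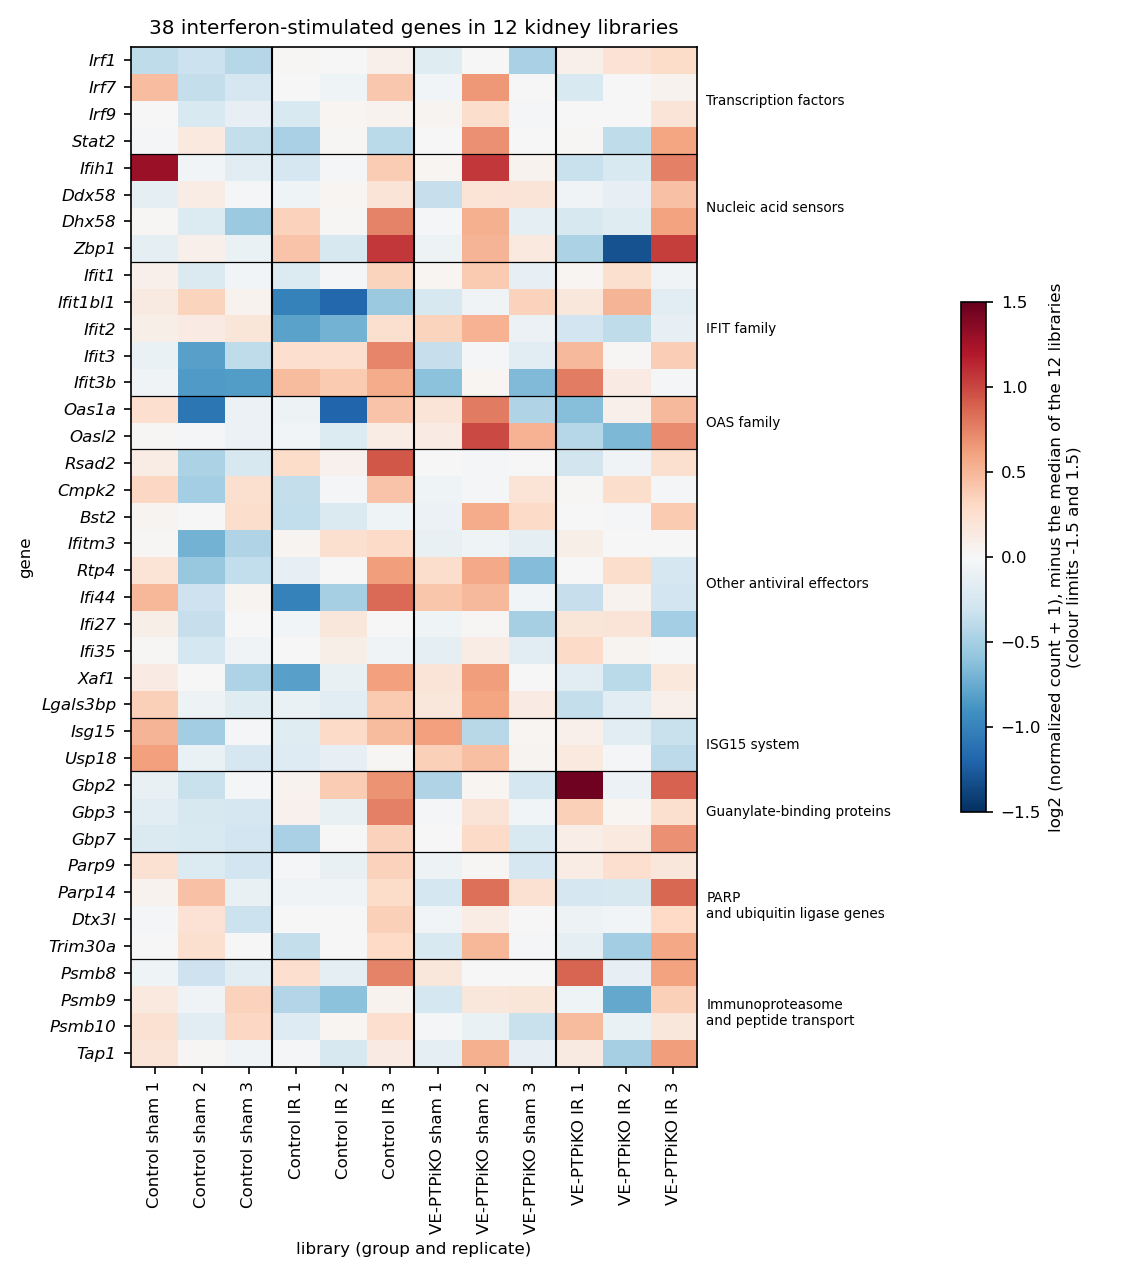
Log2 (normalized count + 1) of the 38 genes (rows, grouped by role) in the 12 libraries (columns), as the difference from each gene's 12-library median, with red above and blue below. Red runs down the columns of Control IR replicate 3 and VE-PTPiKO sham replicate 2 across most roles, and Ifit1bl1 is blue in the 3 Control IR columns.

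In the ISG15 system, Isg15, a ubiquitin-like modifier, and Usp18, which removes it and dampens the type I receptor, both overlapped in both genotypes. Their differences were 0.21 and -0.18 in Control and -0.21 and -0.37 in VE-PTPiKO. The guanylate-binding proteins are GTPases typical of the interferon-gamma response. In either genotype 0 of 3 passed, against 11.5% and 2.71% of all genes. Gbp2 stood at 98.9, 84.7 and 104 in Control sham and 111, 139 and 171 in Control IR, with no overlap and a difference of 0.53 ± 0.20 (adjusted p = 0.135). In VE-PTPiKO it stood at 77.8, 109 and 89.0 in sham and 294, 100 and 197 in IR. IR replicates 1 and 3 were high there and replicate 2 lay inside the sham range. The difference was the largest rise fitted in VE-PTPiKO among the 38, at 0.98 ± 0.36 or 1.97-fold, and did not pass (adjusted p = 0.233). DESeq2 on recovered reads called it (1.1, adjusted p = 0.0413). Gbp3 was higher in all Control IR libraries than in sham (0.45, adjusted p = 0.269), and Gbp7 overlapped in both genotypes (0.20 and 0.29).

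The PARP and ubiquitin ligase genes include Parp9 and Dtx3l, whose products form a complex and whose genes overlap head to head in antisense. None of these 4 genes passed in either genotype, against 11.5% and 2.71% of all genes. Their differences ran from -0.09 to 0.17 in Control and from -0.14 to 0.28 in VE-PTPiKO. Parp14 and Trim30a stayed within that range, and Parp9 in VE-PTPiKO was higher in every IR library (0.28, adjusted p = 0.438).

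The immunoproteasome subunits Psmb8, Psmb9 and Psmb10 replace the constitutive subunits to cut peptides for MHC class I, and Tap1 carries peptides into the endoplasmic reticulum. None of the 4 passed in either genotype, against 11.5% and 2.71% of all genes. Psmb9 stood at 56.2, 48.9 and 65.0 in Control sham and 37.4, 32.9 and 52.9 in Control IR, and at 42.2, 57.4 and 58.0 in VE-PTPiKO sham against 48.8, 29.4 and 65.4 in VE-PTPiKO IR. The Control groups overlapped through IR replicate 3, with a difference of -0.47 ± 0.26 (adjusted p = 0.31), and VE-PTPiKO differed by -0.19. Psmb10 stood at 173, 131 and 183 in Control sham and 129, 151 and 176 in Control IR, and at 144, 137 and 117 in VE-PTPiKO sham against 205, 137 and 166 in VE-PTPiKO IR. Both pairs of groups overlapped (-0.09 and 0.34). Psmb8 differed by 0.47 and 0.40 and Tap1 by -0.09 and 0.00, all with overlap. The constitutive partners Psmb5, Psmb6 and Psmb7 gave 0 calls of 3 in either genotype, against the same shares of all genes. Their medians were -0.05 and 0.12.

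Genotype was compared within each surgery on counts normalized over all 12 libraries. In sham, 0 of 38 genes passed, against 0.0% of 16339 genes, and 0 reached an unadjusted p under 0.05 (1.63% of all genes). The groups did not overlap for 3 genes, Oasl2, Gbp3 and Psmb8, against 4.87% of all genes. All 3 were higher in VE-PTPiKO, against 2.5% of all genes. The fitted VE-PTPiKO value was above 0 for 32 of 38 genes with a median of 0.16 (log2), against 0.01 for all genes. The 38 genes share 1 high library there, VE-PTPiKO sham replicate 2, so these signs are not 38 separate observations. Without that library 23 of 38 lay above 0 and the median was 0.05, against 0.00 for all genes. Without the 3 libraries highest in Malat1, 18 of 38 lay above 0 and the median was -0.01. The median was 0.10 without Control sham replicate 2, 0.27 without Control sham replicate 1 and 0.26 without VE-PTPiKO sham replicate 3. In 23 of the 38 genes the sign differed from this fit in at least 1 alternative. The highest differences were Oasl2 at 0.57 ± 0.32 and Oas1a at 0.48 ± 0.49, and the lowest were Psmb10 at -0.28 ± 0.20 and Ifit1bl1 at -0.15 ± 0.25.

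In IR, 0 of 38 genes passed between genotypes, against 0.0% of all genes, and Ifit1bl1 alone had an unadjusted p under 0.05 (0.000793, limma adjusted p = 1), against 4.34% of all genes. Its difference was 1.09 ± 0.25 (log2), higher in all 3 VE-PTPiKO IR libraries than in any Control IR library. Over 16 alternative settings this value ran from 0.92 to 1.35 and its adjusted p from 0.062 to 1, so it did not pass in any. Bst2 was the other gene whose groups did not overlap (0.34, adjusted p = 1), making 2 of 38 against 9.16% of all genes. Both were higher in VE-PTPiKO, against 3.97% of all genes. The next highest difference was Gbp2 at 0.38 ± 0.31, and the lowest were Zbp1 at -0.66 ± 0.51 and Rsad2 at -0.45 ± 0.22. The interaction of genotype and injury gave 0 of 38 calls, against 0.0% of all genes, and 1 unadjusted p under 0.05, that of Ifit1bl1, against 2.64%. The highest interaction values were Ifit1bl1 at 1.24 and Gbp2 at 0.45, and the lowest were Zbp1 at -0.91 ± 0.72 and Dhx58 at -0.68 ± 0.44. In all 3 contrasts edgeR and DESeq2 on recovered reads also called 0 of the 38, against 0.0% of all genes by edgeR and 0.00612%, 0.00612% and 0.0% by DESeq2 in sham, in IR and for the interaction. The interaction intervals are wide, and 19 of 38 lay within 2-fold, against 59.8% of all genes.

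The fold changes in the authors' deposited tables are shrunk, as their size beside the deposited group means shows. The authors' deposited table for Control lists 7 of the 38 genes at adjusted p under 0.05, against 21.1% of the 13664 genes it gives one for. They are Ifit3, Ifit3b, Ifit1bl1, Irf1, Ifitm3, Rsad2 and Gbp2. The authors' deposited table for VE-PTPiKO lists 2, Gbp2 (log2 0.85, adjusted p = 0.0135) and Ifit2 (-0.50, adjusted p = 0.0396), against 11.3% of 13732 genes. In Control its values for Irf1, Ifitm3, Rsad2 and Gbp2 in the authors' deposited table were 0.40, 0.52, 0.61 and 0.51 (adjusted p = 0.0122, 0.00533, 0.00914 and 0.0482).

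The rest of the pathway was read from lists of ligands, receptors, inducers, brakes and further targets. Of 21 interferon genes, 14 had 0 reads in all 12 libraries, Ifnb1 and Ifng among them. A count of 0 allows up to 3 reads, or 0.141 to 0.194 CPM (reads scaled to the library total) depending on the library, which covers counting error only. The largest total was 17 reads for Ifnk over 7 libraries, with 2 reads in Control sham, 1 in Control IR, 13 in VE-PTPiKO sham and 1 in VE-PTPiKO IR. Ifnk, an interferon made mainly by keratinocytes, had 9 of those reads in 1 library, VE-PTPiKO sham replicate 2. Its VE-PTPiKO sham libraries lay above those of Control sham and of VE-PTPiKO IR, and neither difference passed (limma adjusted p = 1 and 0.281). Ifnz had 4 reads in 2 libraries, at most 3 in 1 library, and the other 5 genes with reads had at most 1 read in any library.

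Among 9 receptor and kinase genes, 3 rose in Control (33.3%, against 7.48% of all genes) and 1 in VE-PTPiKO (11.1%, against 1.92%). Ifngr2, a chain of the interferon-gamma receptor, stood at 605, 555 and 605 in Control sham and 1019, 882 and 900 in Control IR. Its VE-PTPiKO values were 607, 492 and 562 in sham and 1040, 952 and 788 in IR. It did not overlap in either genotype and rose 1.59-fold in Control (0.67 ± 0.11, limma adjusted p = 0.00314) and 1.67-fold in VE-PTPiKO (0.74 ± 0.16, adjusted p = 0.0446), where leaving out any library but IR replicate 3 ended the call (0.0655 to 0.202). Jak1, the kinase shared by all 3 receptor types, rose 1.52-fold in Control, from 3190, 3668 and 3212 to 4974, 5264 and 5027 (adjusted p = 0.00312). In VE-PTPiKO it went from 3312, 3646 and 3633 to 4144, 4317 and 4827 without passing (0.33, adjusted p = 0.252). Ifngr1 rose 1.31-fold in Control (0.38, adjusted p = 0.0484), a call lost in 9 of 17 alternatives, among them leaving out Control sham replicate 1 or 2 or any Control IR library (0.0694 to 0.227). Ifnar1 and Ifnar2 did not pass (0.20 and -0.05 in Control, 0.15 and 0.07 in VE-PTPiKO).

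The induction machinery had 2 rises among 12 genes in Control (16.7%, against 7.48% of all genes) and 1 fall (8.33%, against 4.02%). It had 1 rise in VE-PTPiKO (8.33%, against 1.92%). Irf5, a myeloid-enriched factor downstream of Toll-like receptors, rose 1.8-fold in Control (338, 279 and 310 in sham, 684, 471 and 529 in IR, adjusted p = 0.00545). It rose 2.17-fold in VE-PTPiKO (295, 225 and 183 in sham, 513, 508 and 476 in IR, adjusted p = 0.0179), a call that ended without either of sham replicates 2 and 3 or of IR replicates 1 and 2 (0.0804 to 0.0929). An antisense gene covers 14.1% of Irf5 exon bases. Tmem173, which encodes STING, rose 1.84-fold in Control (51.7, 66.4 and 67.1 in sham, 85.4, 144 and 118 in IR, adjusted p = 0.0368), a call that ended without either of sham replicates 1 and 3 or of IR replicates 2 and 3 (0.0691 to 0.198). Mavs, the adaptor of RIG-I and MDA5, fell 1.4-fold in Control (1258, 1310 and 1238 in sham, 848, 939 and 920 in IR, adjusted p = 0.0102). In VE-PTPiKO, Tmem173 and Mavs differed by 0.82 and -0.58 without passing (adjusted p = 0.138 and 0.115), and neither gene's groups overlapped.

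Of 6 negative regulators, 4 rose in Control (66.7%, against 7.48% of all genes) and 1 in VE-PTPiKO (16.7%, against 1.92%). Socs3, an inhibitor of JAK signalling that also answers to interleukin 6, stood at 294, 276 and 196 in Control sham and 796, 1805 and 719 in Control IR. Its VE-PTPiKO values were 215, 228 and 141 in sham and 710, 929 and 776 in IR. It rose 4.02-fold and 4.19-fold (2.01 ± 0.30 and 2.07 ± 0.21, limma adjusted p = 0.00147 and 0.0016), and kept both calls in 17 of 17 alternatives. Socs1, the main brake on interferon receptors, rose 2.87-fold in Control at low counts (4.50, 6.12 and 4.26 in sham, 10.7, 23.1 and 16.1 in IR, adjusted p = 0.0378). That call ended with DESeq2 (0.0662) and without either of sham replicates 1 and 3 or of IR replicates 2 and 3 (0.0848 to 0.199). Ptpn2, a phosphatase of JAK1, rose 1.67-fold (adjusted p = 0.00251). Irf2bp2, a corepressor with 20.5% of its exon bases under an antisense gene, rose 1.37-fold in Control (adjusted p = 0.0212), a call lost in 1 model of all 12 libraries (0.0717) and without either of sham replicates 1 and 3 or of IR replicates 2 and 3 (0.0581 to 0.128). In VE-PTPiKO, Socs1, Ptpn2 and Irf2bp2 differed by 0.96, 0.71 and -0.06 without passing (adjusted p = 0.327, 0.0701 and 0.911).

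Of 63 other interferon-stimulated genes, 3 rose (4.76%) and 1 fell (1.59%) in Control, below the shares of 7.48% and 4.02% among all genes. In VE-PTPiKO 1 rose (1.59%), near the 1.92% of all genes. Oasl1, a regulator of Irf7 translation, rose 2.93-fold in Control (38.2, 34.1 and 22.4 in sham, 108, 74.7 and 96.4 in IR, adjusted p = 0.00374) and kept its call in 17 of 17 alternatives. Isg20, an RNA exonuclease, rose 2.48-fold (adjusted p = 0.0355), a call lost in 7 of 17 alternatives, among them leaving out sham replicate 2 or 3 or any IR library (0.054 to 0.19). Ifi204, a DNA-binding protein with close copies such as Ifi211, rose 2.16-fold (adjusted p = 0.00797, and 0.065 without IR replicate 2). Ifitm1 fell 1.71-fold (adjusted p = 0.0365), a call lost in 8 of 17 alternatives, among them leaving out sham replicate 1 or 2 or any IR library (0.0548 to 0.139). In VE-PTPiKO these 4 genes differed by 1.08, 1.11, 0.67 and -0.27 without passing. Cxcl11, a ligand of CXCR3, rose in VE-PTPiKO from 1.65, 2.82 and 1.03 to 38.4, 12.0 and 21.8 (3.05 ± 0.52, adjusted p = 0.0169), at very low counts and with an antisense gene over 41.7% of its exon bases. That call ended without VE-PTPiKO sham replicate 3 (adjusted p = 0.0898) and without IR replicate 1 (0.0866). Cxcl10, another CXCR3 ligand, stood at 57.3, 29.7 and 47.9 in Control sham and 87.6, 40.9 and 76.6 in Control IR, and at 32.3, 33.9 and 42.4 in VE-PTPiKO sham against 82.1, 59.8 and 75.2 in VE-PTPiKO IR. It did not pass (0.58 and 0.98, adjusted p = 0.344 and 0.0865). Mx1, a classical type I target, had 1.09 to 15.04 normalized counts over the 12 libraries and did not pass.

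**Figure D5:**
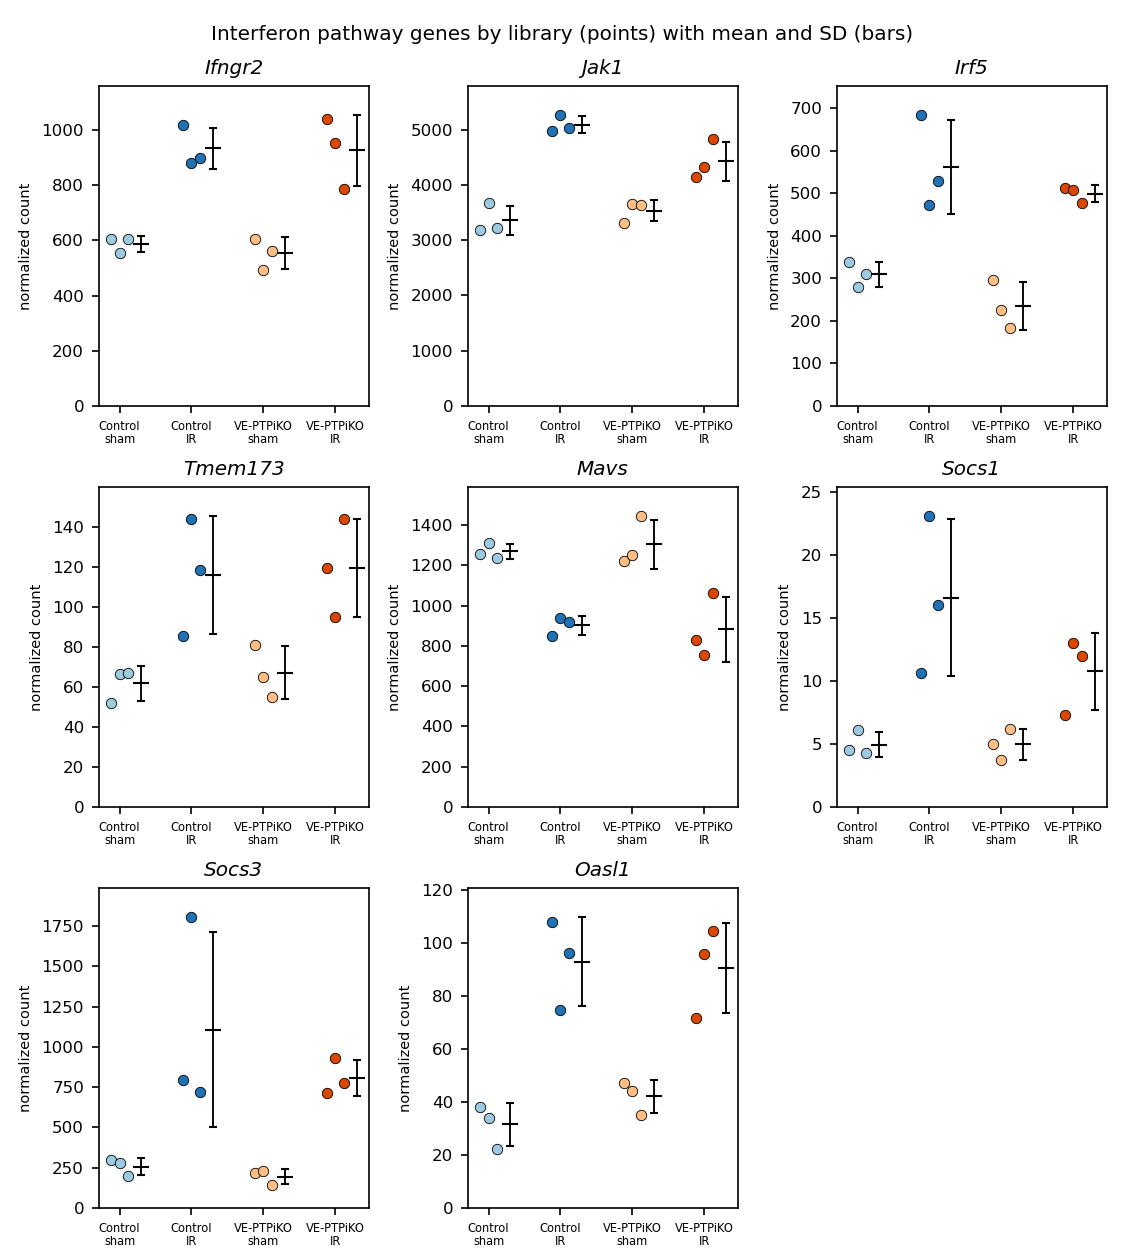
Normalized counts (y axis, from 0) of 8 pathway genes outside the 38 in each library of the 4 groups, with points for libraries and bars for mean and SD (n = 3). Mavs is lower in every IR library than in every sham library of the same genotype, and all the other genes shown are higher.

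Markers of cells that could carry these transcripts moved in part with IR, and their part in the results was not tested. In bulk tissue, fewer cells of a type and less RNA per cell cannot be told apart. Leukocyte markers (Ptprc, Cd53 and Coro1a) summed to 395 to 466 in Control sham and 519 to 631 in Control IR, and to 342 to 511 and 447 to 620 in the VE-PTPiKO groups. Cd53 rose in Control (0.66, adjusted p = 0.0455). Macrophage and monocyte markers (5 genes) summed to 1280 to 1510 in Control sham and 1500 to 1720 in Control IR. They summed to 1310 to 1450 and 1320 to 1650 in VE-PTPiKO sham and IR, and Cd68 alone of the 5 was called (2.49 and 2.38). Of 6 neutrophil markers, Mpo, Elane and Ly6g had at most 1, 1 and 3 reads in any library. Mpo was at 0 in both sham groups, and Elane in both Control groups. The 6 summed to 60.3 to 172 in Control sham and 137 to 405 in Control IR, and to 108 to 128 and 108 to 288 in VE-PTPiKO sham and IR. Plasmacytoid dendritic cell markers (4 genes, Bst2 included) summed to 219 to 241, 174 to 254, 204 to 284 and 221 to 272 in the same order. Endothelial markers (3 genes) summed to 4540 to 4940 in Control sham and 4840 to 5610 in Control IR, with a rise of Cdh5 (0.58, adjusted p = 0.00562), and to 4920 to 5710 and 5030 to 5990 in the VE-PTPiKO groups. T and NK cell markers (6 genes) summed to no more than 41.6 in any library and B cell markers to no more than 12.2. Red blood cell markers (3 genes) all rose in Control, from sums of 997 to 3060 in sham to 5430 to 9810 in IR. Their sums were 1240 to 2300 and 1940 to 9040 in the VE-PTPiKO groups, the lowest IR value being that of replicate 3. In the 3 libraries where the 38 genes stood highest, endothelial and plasmacytoid dendritic sums were the highest of their group each time. Endothelial sums were 5610 in Control IR replicate 3, 5710 in VE-PTPiKO sham replicate 2 and 5990 in VE-PTPiKO IR replicate 3. The endothelial markers did not all follow their sum. In VE-PTPiKO sham replicate 2 only Kdr was highest of its group (2816), while Pecam1 was lowest (1684) and Cdh5 lay between the others (1210). Cdh5 also lay between the others in Control IR replicate 3 (1510). In VE-PTPiKO IR replicate 3 all 3 markers were highest. Plasmacytoid dendritic sums were 254, 284 and 272 in these 3 libraries in turn. Bst2, itself 1 of the 38 genes, supplied 171, 262 and 234 of them, so this match sets the 38 genes partly against themselves. Cox6a2 was highest of its group in Control IR replicate 3 (69.95) but lowest in the VE-PTPiKO libraries (11.3 and 22.9). Ccr9 went the opposite way at low counts (5.67, 9.40 and 9.81), and Siglech was highest in none. Leukocyte sums were the highest of the group in both VE-PTPiKO libraries (511 and 620) and lay between the others in Control IR replicate 3 (551). Of the leukocyte markers only Ptprc was highest in those VE-PTPiKO libraries (274 and 375), and Cd53 was the lowest in VE-PTPiKO IR replicate 3 (122). Macrophage sums were the highest in VE-PTPiKO IR replicate 3 (1650) and lay between the others in Control IR replicate 3 (1670) and VE-PTPiKO sham replicate 2 (1330). T and NK sums were the highest of the group in Control IR replicate 3 (28.4) and the lowest in VE-PTPiKO sham replicate 2 (18.8) and VE-PTPiKO IR replicate 3 (13.1). Kidney tubule sums were the highest in Control IR replicate 3 (301000) and VE-PTPiKO IR replicate 3 (322000). They lay between the others in VE-PTPiKO sham replicate 2 (350000). B cell sums were the highest in Control IR replicate 3 (6.62) and VE-PTPiKO sham replicate 2 (12.2). They lay between the others in VE-PTPiKO IR replicate 3 (4.36). Neutrophil, podocyte and red blood cell sums were the highest of the group in none of these libraries.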

How the data were processed

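Reads were processed by the authors with FastQC, STAR, HTSeq and DESeq2 on mm10, per the submitters' processing notes. Versions and strandedness are not stated there. Per the labels' protocols, whole-kidney RNA was taken up in Trizol and made into libraries with a TruSeq RNA kit. Each deposited library column is a normalized signal: a gene's count over a size factor that was set within its genotype's table, as the values showed. Multiplying back gave whole reads for 100.0% of values (tolerance 0.02). The authors' deposited log2 fold changes with their standard errors, and the deposited p-values and adjusted p-values, were read per the file headers, and the deposited Wald score was not used.

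Of 23493 lines, 23286 genes were kept after repeated identifiers were dropped. IR was tested against sham within each deposited table by limma 3.58.1 with a trend on log2(value + 1), so fold changes of low genes are understated, for genes with a mean of at least 1. Genotype contrasts and the interaction used recovered reads of all 12 libraries, normalized together. Alternatives used edgeR 4.0.16 and DESeq2 1.42.0 in R 4.3.3, other filters, pseudocounts, TMM, library weights, a replicate block and leaving out libraries. The limma fit at its main settings and the edgeR and DESeq2 fits were tested on simulated data, and the other alternatives were not. Deposited gene starts count from 0, so 1 was added. Exon lengths came from GENCODE M21.

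The 38 genes, the pathway and marker lists and the rules were chosen with earlier results of these data known. Among the 38 genes, values of every library are given for those called in any comparison and for the 3 widest within-group spreads. They are also given for the 3 highest and 3 lowest log2 fold changes of each IR comparison. The same holds for the 2 highest and 2 lowest of each genotype contrast. Other list genes are named where called, some by fold change alone, with Mx1, Cxcl10, Ifnb1, Ifng, Ifnar1 and Ifnar2. One gene of the receptor and kinase list is not reported here and was left out of its counts. Nothing in the labels ties equal replicate numbers to each other. In control titles all sham sample codes come after the IR codes, so a batch that the codes might follow cannot be told apart from surgery there. The 2 single-cell samples, taken at 24 h, were not analysed here.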

Additional observations from a re-analysis of the deposited data

How the results depend on the processing

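In Control, the count of 3 of the 38 genes called after IR was 5 with DESeq2 on recovered reads (13.2%, against 15.4% of 14362 genes). It was 5 with library weights, and it ran from 0 to 4 when single libraries were left out. Among these omissions it was 1 without Control sham replicate 3, 1 without IR replicate 1 and 0 without IR replicate 2. In VE-PTPiKO the count of 0 was 1 with DESeq2 (2.63%, against 7.15% of 14173 genes). With library weights it was 4 (Ifit3b, Irf1, Oasl2 and Lgals3bp). It ran from 0 to 1 when single libraries were left out, the 1 being Oasl2 without IR replicate 3. The cause of these shifts was not tested. Counts under the other settings, here and below, are given without the share of all genes called. They are not read as a gain or loss particular to the 38 genes. Both genotype contrasts and the interaction stayed at 0 in every setting run, the single-library omissions included. No value that passed the test turned its direction under any alternative run.

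With the replicate number as a block the counts were 3 in Control and 0 in VE-PTPiKO. Samples with the same number correlated at 0.09, -0.02 and -0.11 in Control and 0.46, -0.3 and 0.11 in VE-PTPiKO, so the numbers were not taken as pairs. The block ended the calls of Ifngr1, Ifitm1 and Isg20 in Control (adjusted p = 0.0729, 0.0626 and 0.0561). Without the 3 libraries highest in Malat1 the counts were 4 and 0.
With 3 libraries in each group, differences under 2-fold were often within the spread, as the intervals given above show.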
